A study of Mus musculus with 4 samples.

Results

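Fibroblasts with RNA of the matrix genes Comp, Fmod, Wif1, Chad and Cilp2 were examined in dissociated mouse hearts. Single-cell RNA sequencing in droplets gave 4 libraries, 1 for each group. The groups were CLP plus stimulation, CLP, sham and control. CLP is cecal ligation and puncture, a surgical model of abdominal sepsis, and the stimulation was low-level tragus stimulation, an electrical stimulus at the part of the outer ear that a branch of the vagus nerve supplies. The treatment label of the stimulated sample names the stimulation alone, and its title adds the sepsis. The labels used here name no strain or age, and say neither how many animals a library holds nor when hearts were taken. As a group has 1 library, differences have no replicate check and none was tested. Every interval in parentheses is an exact 95% interval that covers counting error only.

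A barcode was taken as a member when it had at least 500 UMIs, at least 200 genes and at most 20% mitochondrial UMIs, when Col1a2, Dcn and Col3a1 together reached 50 per 10000 UMIs, when Cdh5, Ptprc and Myh11 were at 0, and when at least 2 of the 5 matrix genes had a UMI. The members were thus chosen by measured UMI counts of the same cells, so the levels of those genes in the members are a description. The rule found 545 cells, called the marker fibroblasts here, among 8085 fibroblasts passing the other criteria and 41542 kept barcodes of the series. There were 43 in CLP plus stimulation, 127 in CLP, 122 in sham and 253 in control. The rest of the gated fibroblasts, 7540 cells, served as the comparison within each library. Of those, 5213 had a UMI of Pi16 or Dpp4, markers of adventitial fibroblasts, and 2327 had none.

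Comp, the cartilage oligomeric matrix protein, binds collagen and organises its fibrils in cartilage and tendon. Fmod, fibromodulin, is a small leucine-rich proteoglycan that controls the width of collagen fibrils, Chad, chondroadherin, is a related protein that binds cells and collagen, and Cilp2 is a matrix protein of cartilage. Wif1 is a secreted inhibitor that binds Wnt ligands outside the cell. In the heart, genes of tendon and cartilage are known from the valves and their fibrous attachments, where tissue bears repeated tension and shear.

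In the annotation of GRCm38 (GENCODE vM21) the 5 genes are protein coding. Comp lies on chromosome 8 from 70373558 to 70382066, Fmod on chromosome 1 from 134037254 to 134048277, and Wif1 on chromosome 10 from 121033960 to 121100650. Chad lies on chromosome 11 from 94565047 to 94569127, and Cilp2 on chromosome 8 from 69880369 to 69887687.

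Fibroblast markers were high in the members, also beyond the 3 gate genes, but lower than in the other fibroblasts. The summed level of 6 fibroblast markers that the gate did not use was 11738, 11303, 19593 and 19263 CPM (the gene's UMI counts scaled to the same total of UMIs in every group of cells) in the marker fibroblasts of CLP plus stimulation, CLP, sham and control. The other fibroblasts of the same libraries had 14702, 16532, 27706 and 26807 CPM, and leukocytes had 571 to 1604 CPM. The fibroblast markers Pdgfra, Tcf21 and Ddr2, a growth factor receptor, a transcription factor and a collagen receptor, were at least 2-fold lower in the members in all 4 libraries. Epicardial markers were at 0 in 3 libraries and at 0.616 CPM in CLP. The members' median depth was 10131, 12335, 11670.5 and 6092 UMIs in CLP plus stimulation, CLP, sham and control, above the 6540, 8366.5, 7489 and 4352 UMIs of the other fibroblasts. A rule that asks for UMIs of sparse genes takes deeper cells more often. Control was the shallowest library per cell.

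The same genes were sparse in other cell types, where a UMI can come from free RNA. At least 2 of the 5 genes were found in 0.160% to 0.797% of leukocytes and 0.561% to 0.810% of endothelial cells, at median depths of 4104.5 to 8074.5 and 2669 to 4229 UMIs. Among the gated fibroblasts the shares were 2.99% to 8.0%. Comp was the gene most often detected in the members of both CLP libraries, and Fmod in those of sham and control. Comp had a UMI in 90.7% of members in CLP plus stimulation, 86.6% in CLP, 86.1% in sham and 83.0% in control. The shares for Fmod in the same order were 72.1%, 75.6%, 91.8% and 89.7%, and those for Wif1 were 60.5%, 79.5%, 73.0% and 70.4%. Chad and Cilp2 were found in fewer members, at 20.9% to 30.7% and 18.6% to 46.7%.

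Most members had 2 or 3 of the 5 genes. In CLP plus stimulation, CLP, sham and control, 26, 52, 40 and 109 cells had exactly 2, and 10, 41, 37 and 65 had 3. The cells with 4 numbered 4, 21, 21 and 46, and those with all 5 numbered 3, 13, 24 and 33. Just outside the rule, 95, 157, 162 and 362 fibroblasts had 1 of the genes. Of 28 genes examined because they differ between members and other fibroblasts, 22 were ordered by the number of markers in all 4 libraries, and Cytl1, Lamb1, Ms4a4d, Pi16, Spp1 and Tnfaip2 were not. Genes and marker classes came from the same cells, so part of this order was fixed by the selection, and it is a description. In sham, Ecrg4 stood at 30.8 CPM in fibroblasts with no marker, 322 CPM with 1, 568 CPM with 2 and 3794 CPM with 3 to 5. Dpep1, a gene of ordinary cardiac fibroblasts, went the other way in sham, at 567, 358, 106 and 6.91 CPM over the same classes. The class with 1 marker lay between both sides in each of the 4 libraries for these 2 genes.

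The marker fibroblasts were a smaller part of the fibroblasts in CLP plus stimulation than in the other libraries. They made up 2.99% (2.17 to 4.01) of gated fibroblasts in CLP plus stimulation, 6.67% (5.59 to 7.88) in CLP, 7.73% (6.46 to 9.16) in sham and 8.0% (7.07 to 9.0) in control. The log2 ratio of the share was -1.16 (-1.69 to -0.65) for CLP plus stimulation over CLP, -0.21 (-0.58 to 0.16) for CLP over sham and -0.05 (-0.37 to 0.27) for sham over control. When every cell was thinned to 1500 UMIs before the rule was applied, which left out shallower cells, 23 of 1198, 56 of 1965, 80 of 1678 and 177 of 3040 fibroblasts were members. Those shares were 1.92% (1.22 to 2.87), 2.85% (2.16 to 3.68), 4.77% (3.80 to 5.90) and 5.82% (5.02 to 6.71). Thinned, the share of CLP was lower than that of sham by more than counting error, at a log2 ratio of -0.74 (-1.26 to -0.23), and the interval of CLP plus stimulation over CLP reached 0, at -0.57 (-1.34 to 0.15). The genes that define membership were themselves lower in both CLP libraries, so a smaller share and less RNA of these genes per cell cannot be told apart.

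**Figure D1:**
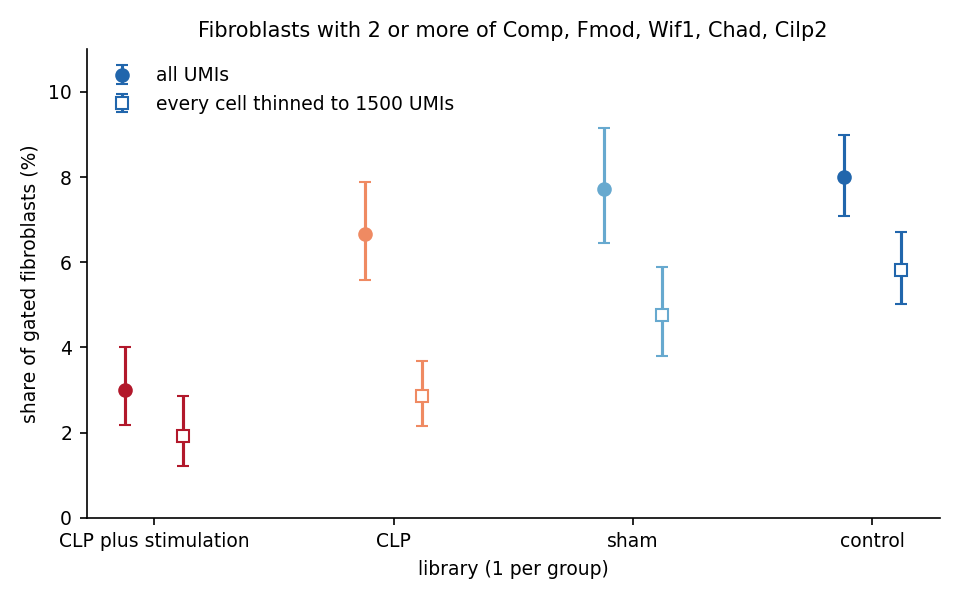
Share of gated fibroblasts (%) that met the rule in each of the 4 libraries, with all UMIs (filled circles) and with every cell thinned to 1500 UMIs (open squares). Bars are exact 95% intervals for counting error, and CLP plus stimulation was lowest with all UMIs, at 2.99%.

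Apart from the rule genes, the marker fibroblasts had a matrix profile of tendon and valve type in every library and lacked much of the adventitial one. All genes of these cells share the cells that were selected, so the following ratios describe the selection and were not tested. Among 2329 genes with at least 50 CPM on the higher side in every library, 53 were at least 2-fold higher (2.28%) and 81 at least 2-fold lower (3.48%) than in the other fibroblasts of the same library in all 4 libraries. Of 17 genes listed for tendon and ligament, 8 were high enough to be judged and 5 were higher in all 4 libraries, namely Thbs4, Col12a1, Angptl7, Cilp and Fibin. Of 21 valve interstitial genes, 12 could be judged and 6 were higher, namely Postn, Cdh11, Cytl1, Ecrg4, Dkk3 and Apoe. No gene of either list was lower in all 4 libraries. Lists and members were chosen with earlier results of these data known.

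The gene whose lowest ratio over the 4 libraries was highest, at 4.43 on the log2 scale, was Ecrg4, which encodes a secreted peptide precursor. Its level in the marker fibroblasts was 764 CPM in CLP plus stimulation, 709 CPM in CLP, 2795 CPM in sham and 2699 CPM in control, against 35.6, 14.2, 70.8 and 77.8 CPM in the other fibroblasts. Thbs4, thrombospondin 4, a matrix protein of tendon and stressed heart, stood at 1055, 774, 334 and 425 CPM in the marker fibroblasts of the same libraries, and at 17.6, 11.3, 16.9 and 11.8 CPM in the others. In CLP plus stimulation 51.0% of the Thbs4 counts came from 1 cell. Angptl7, an angiopoietin-like secreted protein known from cornea and trabecular meshwork, had 2123, 847, 394 and 466 CPM in the marker fibroblasts and 17.9 to 81.6 CPM in the others. Both groups were apart in every library for each of these genes.

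Other genes of this side were matrix or secreted proteins. Clu, clusterin, an extracellular chaperone, had 1420, 1087, 569 and 448 CPM in the marker fibroblasts and 16.8 to 92.6 CPM in the others. Prelp, a leucine-rich proteoglycan that anchors basement membranes, had 659, 1428, 2127 and 2170 CPM. The Wnt pathway was represented by 2 secreted antagonists besides Wif1. Frzb had 323, 384, 297 and 290 CPM in the marker fibroblasts and 48.0 to 62.5 CPM in the others, while Dkk3, a member of the dickkopf family, had 407, 389, 948 and 1153 CPM against 55.6 to 127 CPM. Another antagonist, Sfrp1, was lower in the marker fibroblasts in all 4 libraries. Spp1, osteopontin, had 130 to 214 CPM in the marker fibroblasts and 4.65 to 6.99 CPM in the others. A cell held 55.1% of its sham counts and another 44.3% of those in CLP plus stimulation, and without each library's top cell the level was 85.0 to 105 CPM. A UMI of Spp1 was present in 12.01% and 16.04% of leukocytes in CLP plus stimulation and in CLP. Cytl1, a cytokine-like protein of cartilage, had 284, 126, 1556 and 350 CPM in the marker fibroblasts. Sox9, the master transcription factor of cartilage, had a UMI in 24 of 43, 101 of 127, 100 of 122 and 159 of 253 members. It was not at least 2-fold higher than in the other fibroblasts in all 4 libraries. Of 21 cartilage genes 2 could be judged, and of these Cytl1 alone was higher in all 4 libraries.

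On the low side stood genes of adventitial and interstitial fibroblasts. Of 14 adventitial genes, 7 could be judged and 6 were lower in all 4 libraries (Pi16, Ly6c1, Clec3b, Cd55, Ackr3 and Igfbp6). Of 15 interstitial genes, 9 could be judged and 6 were lower (Tcf21, Pdgfra, Cxcl14, Hsd11b1, Smoc2 and Lpl). Scara5, a scavenger receptor that takes up ferritin, had 5.004 to 11.1 CPM in the marker fibroblasts and 144 to 296 CPM in the others. Dpep1, a membrane dipeptidase, had 16.3 to 37.5 CPM against 464 to 770 CPM. Clec3b, tetranectin, had 14.7, 22.8, 139 and 113 CPM against 124.5, 670, 1139 and 826.5 CPM. The log2 ratios of these 3 genes were at or below -2.87 in every library. Laminin and basement membrane collagen chains (Lamb1, Col4a1 and Col4a2) were among the lower genes too.

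**Figure D2:**
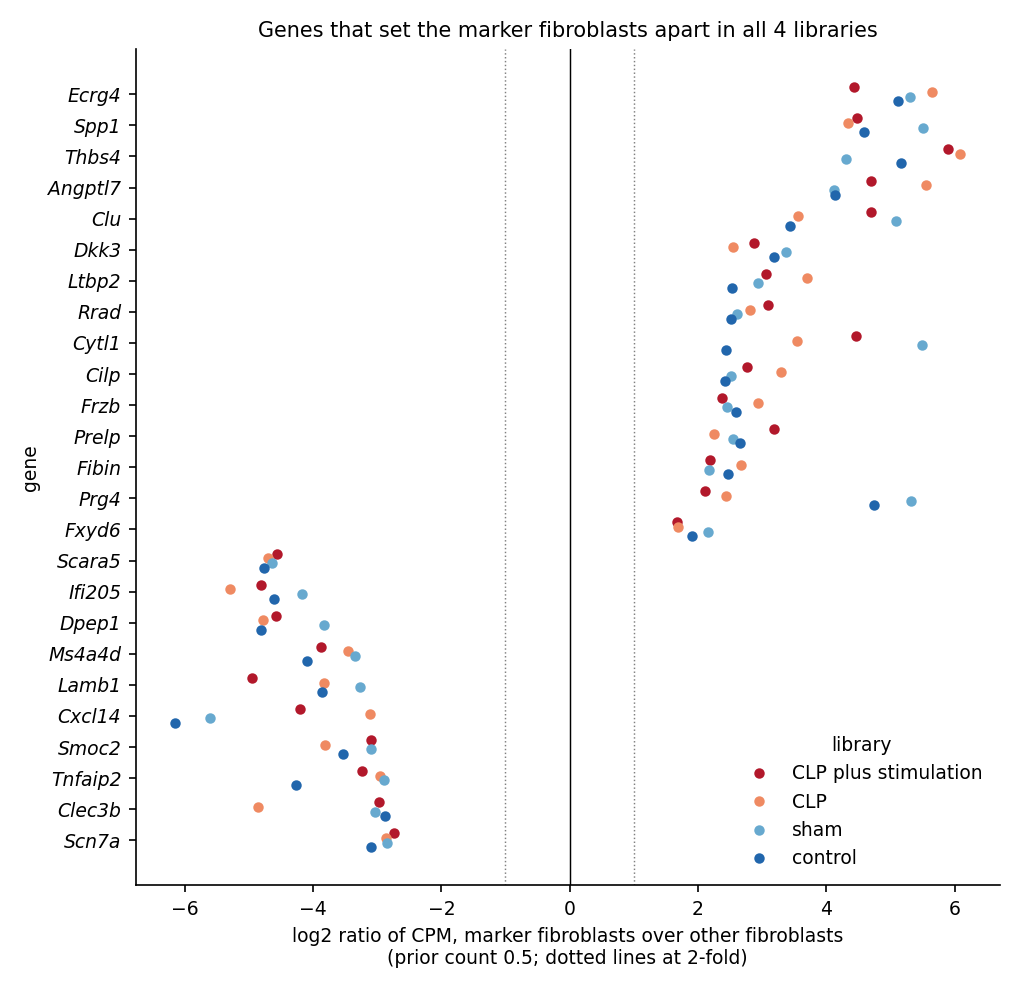
Log2 ratio of CPM in the marker fibroblasts over the other fibroblasts of the same library (prior count 0.5), for the 15 genes with the highest lowest ratio and the 10 with the lowest highest ratio over the 4 libraries. Each point is 1 library, and each gene's 4 points lie on the same side of the dotted line at 2-fold.

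The members varied among themselves. A UMI of Pi16 or Dpp4 was present in 12 of 43, 65 of 127, 68 of 122 and 123 of 253 members of CLP plus stimulation, CLP, sham and control, that is 27.9%, 51.2%, 55.7% and 48.6%. In the other fibroblasts the shares were 48.7%, 77.2%, 78.2% and 69.5%. Median depths of members with and without such a UMI were 11853.5 and 8960.0 UMIs in CLP plus stimulation, 12307 and 12447 UMIs in CLP, 12134 and 11480.0 UMIs in sham, and 6479 and 5819.5 UMIs in control. Some genes followed this split in CLP, sham and control, picked here after their values were seen. Thbs4 had 1854, 926, 510 and 678 CPM in members with Pi16 or Dpp4, and 595, 619, 88.0 and 139.8 CPM in members without. In CLP plus stimulation 1 of the 12 members with Pi16 or Dpp4 held 79.4% of their Thbs4 counts, and the level without it was 440 CPM, below that of the members without Pi16 or Dpp4. Scx, the transcription factor of tendon cells, had 33.5, 105, 296 and 355 CPM with, and 11.6, 40.9, 189 and 172 CPM without. The values of CLP plus stimulation rest on 5 and 3 counts, with intervals that overlap. Mmp3, stromelysin, a protease that cleaves proteoglycans, ran the other way, with 2857, 773, 30.4 and 14.2 CPM in members with Pi16 or Dpp4, and 3496, 4204, 445 and 246 CPM in members without. The gap in Mmp3 was smallest in CLP plus stimulation, where 12 members carried Pi16 or Dpp4. There 1 of these 12 held 66.7% of their Mmp3 counts. Without the top cell on each side, the levels in that library were 1055 CPM with and 2505 CPM without Pi16 or Dpp4. Among members without Pi16 or Dpp4, 1 cell held 44.7% of the Mmp3 counts in sham and 38.9% in control. Without that cell the levels were 251 and 153 CPM.

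CLP over sham sets these cells of septic hearts against those of sham hearts. In CLP, many genes of the acute phase response were higher, as were 9 of 18 glucocorticoid response genes and 7 of 13 cytokines, while most measured fibrillar collagens, tendon and cartilage genes were lower. Of 6285 genes with at least 50 counts over both libraries, 170 were at least 2-fold higher in CLP (2.7%) and 422 at least 2-fold lower (6.71%). The median log2 ratio of all these genes was -0.15 with CPM scaling and 0.02 with TMM factors, under which 236 genes were higher and 305 lower. Ratios below are on the CPM scale and should be read against -0.15.

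Acute phase genes had the highest list median. Of 30 listed genes 22 had enough counts, 15 of them were at least 2-fold higher in CLP and none at least 2-fold lower, and their median log2 ratio was 2.84. In the other fibroblasts 13 of these 22 genes were higher and none lower at 2-fold, with a median of 1.77. Chil1 encodes a chitinase-like glycoprotein secreted by chondrocytes, synovial cells and macrophages, and lies on chromosome 1 from 134182176 to 134190181. It stood at 6989 CPM (6735 to 7250) in CLP plus stimulation, 6146 CPM (6026 to 6268) in CLP, 25.9 CPM (18.3 to 35.5) in sham and 43.2 CPM (33.6 to 54.6) in control. Both CLP libraries were high and the other two low, at a log2 ratio of 7.87 (7.43 to 8.39) for CLP over sham. A UMI of Chil1 was present in 90.6% of members in CLP, in 13.2% of other fibroblasts and in 11.5% of leukocytes, and the levels were 6146, 312 and 60.6 CPM. The spread over cells was wide, with a median of 28.1 Chil1 UMIs per 10000 in CLP and quartiles of 7.72 and 74.4.

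Lcn2, lipocalin 2, binds bacterial siderophores and withholds iron. Its level was 10004 CPM in CLP plus stimulation, 9074 CPM in CLP and 1.36 CPM in sham, and it had no count among 1598857 UMIs in control. The CLP and sham values rest on 14741 and 2 counts, and the ratio on the log2 scale was 12.38 (10.85 to 15.75). In CLP 92.1% of members, 76.3% of other fibroblasts, 63.1% of endothelial cells and 77.2% of leukocytes had a UMI. The level was highest in the members, against 2151 CPM in other fibroblasts and 3803 CPM in leukocytes.

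Saa3, a serum amyloid A apolipoprotein made outside the liver, had 8716 CPM in CLP plus stimulation, 6010 CPM in CLP, 103 CPM in sham and no count in control. In CLP it had a UMI in 100% of members, but also in 99.9% of leukocytes, where it reached 37872.5 CPM, so the members' share cannot be told apart from free RNA. The median member of CLP had 8.69 UMIs per 10000, with quartiles of 5.04 and 61.7. Of the 151 sham counts 150 came from 1 cell with 12701 UMIs, and this cell also held all 8 Cfb counts of sham. It met the rule through 1 UMI of Comp and 2 of Wif1. The ratio of 5.86 for CLP over sham thus rests on the sham side on 1 cell, and the other fibroblasts had a ratio of 11.32.

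The secreted protease inhibitor Serpina3n had 1734, 2992, 46.3 and 16.3 CPM in the 4 libraries, and C3, the central complement protein, had 460, 1383, 71.5 and 46.9 CPM. Both were highest in CLP, at log2 ratios over sham of 6.003 (5.67 to 6.38) and 4.27 (3.99 to 4.57). In the other fibroblasts the ratio of Serpina3n was 5.06, and that of C3 was 1.36 because C3 already stood at 732 CPM there in sham. Cfb, complement factor B, had 61.2, 518, 5.45 and 1.25 CPM. Steap4, a metalloreductase, had 108, 130.5, 1.36 and 2.50 CPM. Saa2 had 635 counts in CLP and none in sham, at least 191-fold higher against a floor of 3 counts over the sham members, and 1 cell held 56.9% of these counts. Saa1 and Saa2, the Serpina3 genes and Mt1 and Mt2 are related genes. How the authors' counting treated reads that match more than 1 of them was not examined. Ahsg, fetuin A, a plasma protein of liver, had 159, 351, 20.4 and 15.01 CPM. The metallothionein Mt2 stood at 9254, 4613, 576 and 467 CPM.

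**Figure D3:**
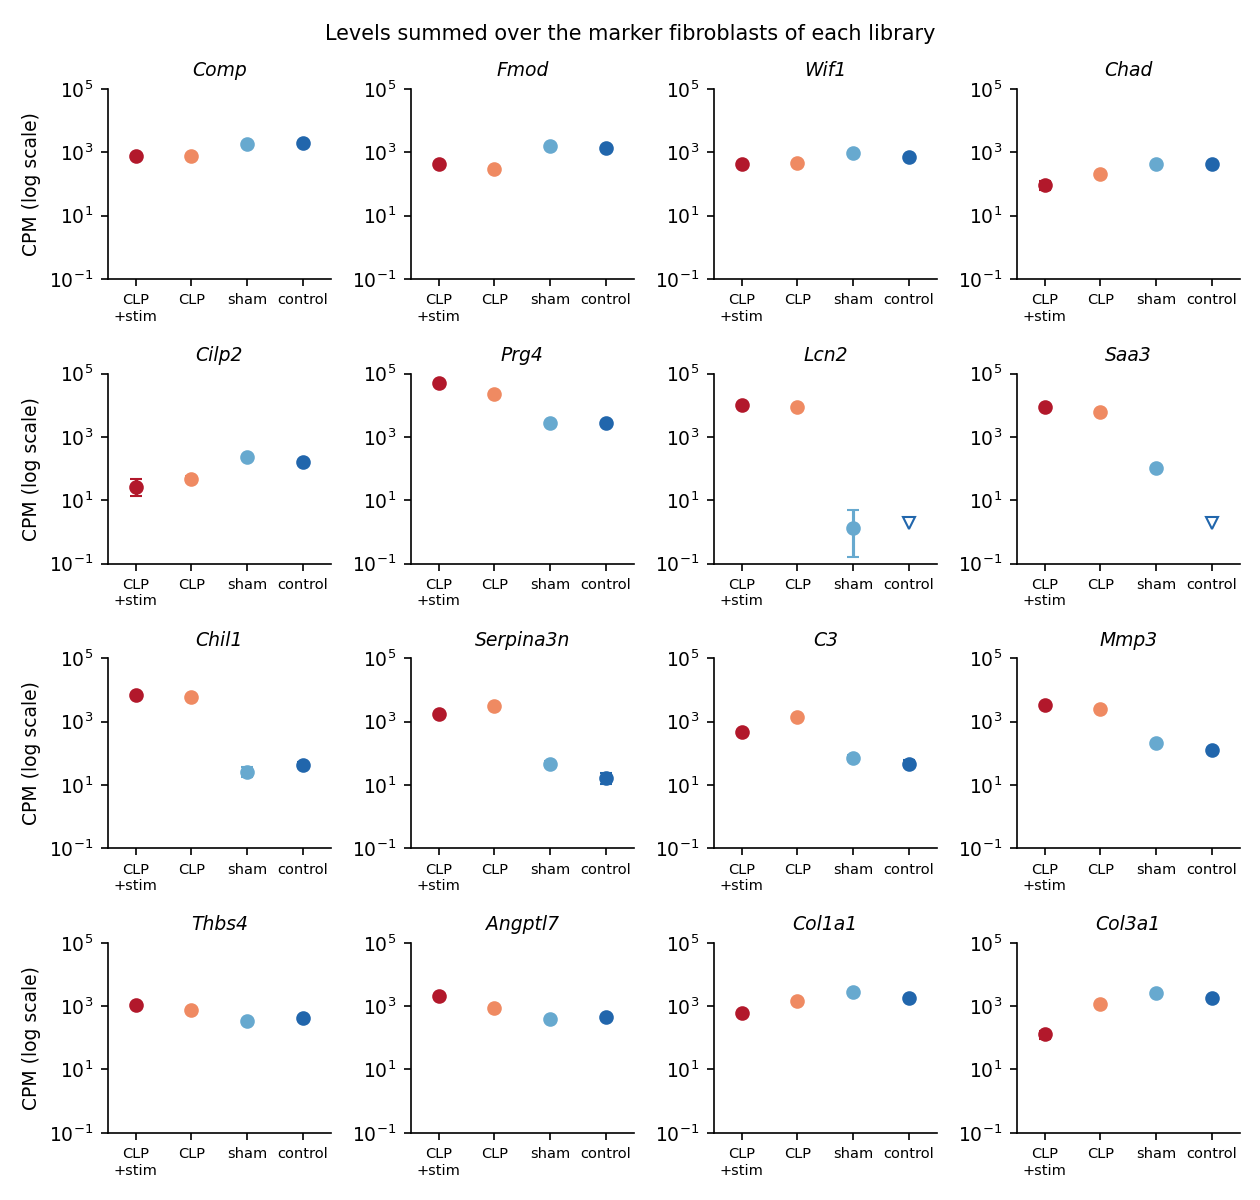
Level (CPM, log scale) of 16 genes summed over the marker fibroblasts of each library, with exact 95% Poisson intervals where wider than the point. Open triangles mark the floor of 3 counts where a gene had no count, and the acute phase genes are high in both CLP libraries while Fmod stands at 421 and 289 CPM there and at 1563 and 1382 CPM in sham and control.

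Because Saa3, Chil1 and Serpina3n were high together in CLP, their 250 bases before the RefSeq start site (GRCm38.p6) are shown. Capitals mark matches to GGGNNNNNCC, written for NF-kB, and to TTNCNNNAA, a string of letters not taken here as the site of a protein. Both strands were searched, and no base fell in both motifs. Among 32851 RefSeq windows of this length, 45.8% hold GGGNNNNNCC and 32.9% hold TTNCNNNAA, so a match is common and is a description of letters only.
Saa3, chr7:46715677-46715926, minus strand: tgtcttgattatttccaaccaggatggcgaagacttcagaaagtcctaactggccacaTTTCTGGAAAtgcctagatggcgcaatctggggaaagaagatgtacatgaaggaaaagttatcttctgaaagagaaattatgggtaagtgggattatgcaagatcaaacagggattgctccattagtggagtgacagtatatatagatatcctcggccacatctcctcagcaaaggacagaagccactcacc
Chil1, chr1:134181906-134182155, plus strand: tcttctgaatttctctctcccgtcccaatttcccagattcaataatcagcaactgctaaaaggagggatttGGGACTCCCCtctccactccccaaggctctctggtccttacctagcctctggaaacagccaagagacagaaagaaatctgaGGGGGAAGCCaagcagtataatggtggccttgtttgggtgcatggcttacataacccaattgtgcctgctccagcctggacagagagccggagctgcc
Serpina3n, chr12:104406458-104406707, plus strand: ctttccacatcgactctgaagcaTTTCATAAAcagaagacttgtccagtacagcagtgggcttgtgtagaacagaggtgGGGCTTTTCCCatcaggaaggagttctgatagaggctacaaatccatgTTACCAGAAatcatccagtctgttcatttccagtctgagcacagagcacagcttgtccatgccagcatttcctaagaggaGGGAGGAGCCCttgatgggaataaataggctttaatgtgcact
Chil1 had GGGNNNNNCC at 2 positions and no TTNCNNNAA. Saa3 had TTNCNNNAA at 2 overlapping positions and no GGGNNNNNCC. Serpina3n had 4 positions of GGGNNNNNCC in 2 overlapping pairs and 2 of TTNCNNNAA. The last bases of the Saa3 window lie inside the longer GENCODE model of the gene.

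Genes of the glucocorticoid response were higher in CLP in 9 of 18 measured members and lower in none at 2-fold, with a median of 1.44. In the other fibroblasts 8 of these 18 genes were higher and none lower at 2-fold, with a median of 0.74. Tsc22d3, a glucocorticoid-induced leucine zipper protein, had 421, 348, 64.7 and 73.8 CPM in CLP plus stimulation, CLP, sham and control. Angptl4, an inhibitor of lipoprotein lipase, had 80.8, 107, 13.6 and 23.1 CPM. Per1 and Errfi1 were the lowest of the list, at -0.67 and -0.31. Lcn2, Mt1 and Mt2 also belong to the acute phase list.

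Among cytokines and chemokines, 7 of 13 measured genes were at least 2-fold higher in CLP and 1 lower, with a median of 1.03. Ccl19, a chemokine for naive T cells and dendritic cells, stood at 2233, 2287, 285 and 271 CPM, at a ratio of 3.00 (2.86 to 3.16). It had a UMI in 96.1% of members in CLP, against 57.7% of other fibroblasts and 6.33% of leukocytes. Cxcl14 had a higher ratio, 3.83, but 5 members held its 86 counts in CLP and 1 of them 62.8%. Il6 had 247, 132, 53.8 and 27.5 CPM. Cxcl10, a chemokine induced by interferon, was lower in CLP, at -1.18. Interferon response genes had a median of 0.51, with 6 of 25 higher and 2 lower at 2-fold. In complement 5 of 13 were higher and 3 lower at 2-fold, with a median of 0.71, which was -0.49 when genes with 1 count or more were taken. The lower ones were C1qa, Cd55 and the collectin Colec12, and C1qa is a macrophage marker.

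Prg4, lubricin, the mucin-like protein that lubricates joint surfaces, was abundant and differed widely. It lies on chromosome 1 from 150449412 to 150466165. Its level was 49140.2 CPM (48463 to 49825) in CLP plus stimulation, 22858 CPM (22626 to 23092) in CLP, 2659 CPM (2576 to 2743) in sham and 2695 CPM (2615 to 2777) in control. Both CLP libraries were high, with the stimulated one higher, and sham and control overlapped. The ratio for CLP over sham was 3.10 (3.06 to 3.15) in the marker fibroblasts and 5.98 (5.88 to 6.09) in the other fibroblasts, where Prg4 stood at 4226 CPM in CLP and 66.8 CPM in sham. In sham 85.2% of members and 16.4% of other fibroblasts had a UMI of Prg4, and in CLP 100% and 88.1%.

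Mmp3 had 3262, 2478, 204 and 123 CPM in the 4 libraries, at 3.60 (3.43 to 3.78) for CLP over sham, and 51.2% of CLP members had a UMI. Its inhibitor Timp1 had 1996, 1845, 424 and 192 CPM. Within the tendon list, 8 of 12 measured genes were at least 2-fold lower in CLP, and 2 were at least 2-fold higher, with a median of -1.35. In the other fibroblasts 8 of these 12 genes were also lower and none higher at 2-fold, with a median of -1.20. The 2 higher genes in the members were Thbs4, at 1.21 (1.06 to 1.37), and Angptl7, at 1.10 (0.96 to 1.25). The ratios of these 2 genes in the other fibroblasts were -0.58 (-0.89 to -0.27) and -0.34 (-0.59 to -0.08). The difference in response between the cell groups was not tested.

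The rule genes were all lower in CLP, with ratios from -2.43 (Fmod) to -1.01 (Wif1) and a median of -1.30. In the other fibroblasts, which by the rule have at most 1 of these genes, the median was -1.35. There 3 of the 5 were at least 2-fold lower and none higher. In the members Fmod stood at 289 CPM (264 to 317) in CLP, against 1563 CPM (1499 to 1628) in sham. Comp stood at 769 CPM (727 to 813) in CLP, against 1894 CPM (1825 to 1966) in sham. A cell had to show these genes to be counted, and where their RNA is low fewer cells pass, so these ratios describe the cells that still passed. Small leucine-rich proteoglycans as a list had a median of -1.29, with 5 of 10 at least 2-fold lower and none higher. Ogn, osteoglycin, had 4.90, 130, 485 and 549 CPM in CLP plus stimulation, CLP, sham and control. Aspn, asporin, which binds collagen and TGF-beta, had 19.6, 156, 503 and 589 CPM. Dcn, which the gate used, lay at -0.13, near the median of all genes.

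Of 9 fibrillar collagen genes 7 were at least 2-fold lower in CLP and none higher, with a median of -1.44. Leaving out Col1a2 and Col3a1, which the gate used, 5 of 7 were lower, with a median of -1.46. Col1a1 had 588, 1463, 2898 and 1879 CPM in the 4 libraries, at -0.99 (-1.06 to -0.91) for CLP over sham, and Col5a1, a regulator of fibril assembly, had 29.4, 173, 477.5 and 339 CPM, at -1.46. Sparc, a collagen-binding glycoprotein, had 786, 2926, 7006 and 5479 CPM. Postn, periostin, a matricellular protein of valves and activated fibroblasts, had 216, 247.5, 1281 and 725 CPM, at -2.37 (-2.53 to -2.22). The myofibroblast list had a median of -1.74, with 7 of 13 lower and 2 higher, Lox and Fn1. In the members with no macrophage marker UMI, 27 against 7 cells, the medians of the myofibroblast and tendon lists were 0.12 and 1.10, and Sfrp2 lay at 1.15. Tagln, a smooth muscle actin-binding protein in that list, had 14.7, 23.4, 180 and 399 CPM. Among 5 measured Wnt antagonists 4 were at least 2-fold lower. Sfrp2 had 12.2, 86.8, 569 and 425 CPM, and Frzb was the exception, at 0.37 (0.19 to 0.55). The other fibroblasts had medians of -0.89 for fibrillar collagens, -1.48 for the proteoglycans and -1.22 for the myofibroblast list.

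Cartilage genes had the lowest median, -3.00, with 13 of 16 at least 2-fold lower and none higher, and much of this came from 1 sham cell. That cell had 25187 UMIs and 4320 genes, with UMIs of 17 of the 21 listed cartilage genes. It held 1434 of the 1435 Col2a1 counts of the sham members, 45 of 61 Acan counts, 80 of 90 Cnmd counts and 1025 of 2284 Cytl1 counts. Col2a1 encodes the main collagen of cartilage. Among all kept barcodes this was the sole sham barcode with at least 5 Col2a1 counts, and none of control or CLP plus stimulation had as many. CLP had 1 such barcode, which was not a member. Without each gene's top cell the median of the list was -1.80. Ucma, a small protein of upper-zone cartilage, was spread over 40 sham and 81 control members, and stood at 14.7, 13.5, 212 and 251 CPM. Sox9 lay near the median of all genes, at -0.10 (-0.30 to 0.10), with 147, 257, 275 and 229 CPM.

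**Figure D4:**
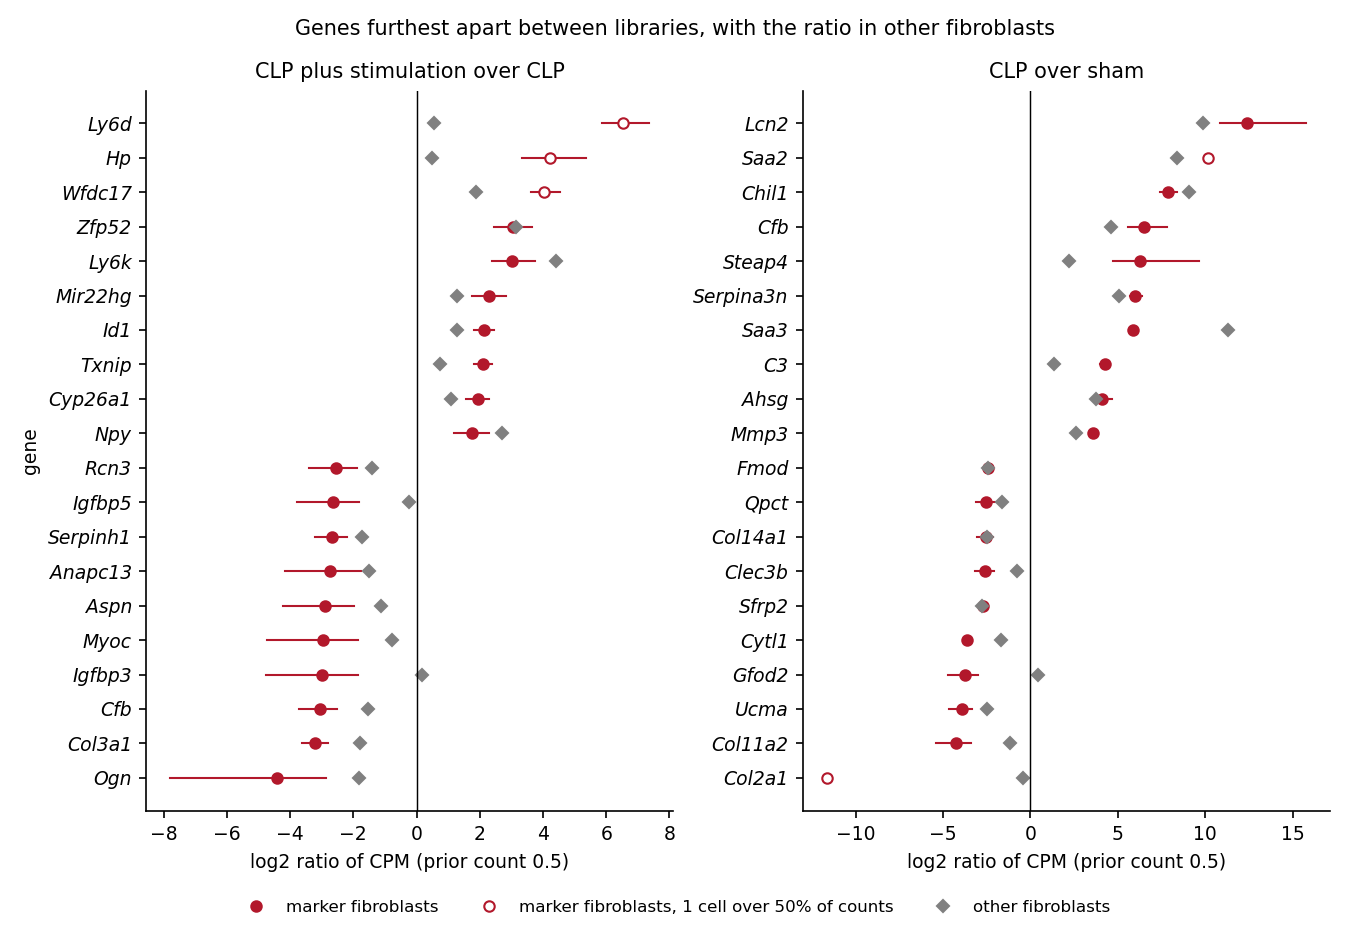
Log2 ratios of CPM for the genes furthest apart in CLP plus stimulation over CLP (left) and CLP over sham (right), in marker fibroblasts (circles, with exact 95% intervals where both ends are finite) and in other fibroblasts (diamonds). Open circles mark genes with over 50% of their counts in 1 cell, among them Ly6d at 6.52 and Col2a1, which had no count in CLP, was at least 529-fold lower against the floor of 3 counts, and is placed by the prior count.

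CLP plus stimulation over CLP asked whether the stimulation alters the septic state. The stimulated members were 43 cells with 408342 UMIs, against 127 cells with 1624509 UMIs in CLP, so single cells weigh more. Prg4, Angptl7, metallothioneins, Id1 and Cyp26a1 were higher, and most measured fibrillar collagens and proteoglycans were lower in the stimulated library. Of 4624 genes with at least 50 counts over both libraries 178 were at least 2-fold higher (3.85%) and 605 at least 2-fold lower (13.1%), and the median of all genes was -0.11.

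Macrophage RNA was also more abundant in the stimulated members. The sum of 9 macrophage markers was 617 CPM in CLP plus stimulation, 142 CPM in CLP, 503 CPM in sham and 437 CPM in control, with 9, 8, 9 and 9 of the 9 markers detected and Mrc1 at 0 in CLP. A cell of the stimulated library held 50% of its sum. Ptprc was at 0 in all members by the rule. Members with no UMI of these markers numbered 12 against 27 cells. Among them 224 of 1117 genes with enough counts were past 2-fold, with 61 higher and 163 lower. The part of macrophage RNA in the ratios below was not tested further.

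The widest ratios upward rested on few cells. Ly6d, a small membrane protein, had 404 counts in CLP plus stimulation and 17 in CLP, and 338 of the 404 came from 1 cell. Hp, haptoglobin, and Wfdc17 had 87.0% and 66.7% of their counts in 1 cell. Genes spread over more members were Id1 and Id3, inhibitors of differentiation that BMP signals induce. Id1 had 409 CPM in CLP plus stimulation, 93.6 CPM in CLP, 103 CPM in sham and 148 CPM in control, at 2.13 (1.80 to 2.45) for CLP plus stimulation over CLP. Id3 had 1325, 569, 1094 and 1175 CPM, so that CLP was the low library.

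Cyp26a1, an enzyme that breaks down retinoic acid, was a further gene of this side. It had 309 CPM (257 to 367) in CLP plus stimulation, 80.6 CPM (67.4 to 95.7) in CLP, 94.7 CPM (79.6 to 112) in sham and 151 CPM (132 to 171) in control. It was detected in 53.5%, 40.9%, 28.7% and 37.2% of members, against 0.41% to 1.22% of other fibroblasts. Txnip, an inhibitor of thioredoxin, had 531, 122.5, 119 and 224 CPM. Il1r1, the interleukin 1 receptor, had 304, 98.5, 69.5 and 64.4 CPM, at 1.63 (1.27 to 1.97). Adamts5, an aggrecanase, had 355, 124, 94.0 and 84.4 CPM. Cdkn1a, a cell cycle inhibitor, had 896, 318, 375 and 530 CPM.

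Prg4 had a ratio of 1.10 (1.08 to 1.13) for CLP plus stimulation over CLP, and 0.90 without its top cell. It was also higher outside the members, at 11401 CPM against 4226 CPM in CLP in other fibroblasts. Endothelial cells had 2033 against 597 CPM, and leukocytes 551 against 188 CPM. The part of free RNA in the Prg4 ratio was not tested. Angptl7 had a ratio of 1.33 (1.20 to 1.45) in the members. Mt1 had 25897 CPM in CLP plus stimulation and 9243 CPM in CLP, at 1.49 (1.45 to 1.52). Chil1 and Lcn2 differed little, at 0.19 (0.13 to 0.25) and 0.14 (0.09 to 0.19), and without their top cells at -0.11 and -0.06. The acute phase list had a median of 0.40, with 4 of 24 genes higher and 4 lower at 2-fold. Without each gene's top cell the median was -0.0012. In the other fibroblasts 5 of these 24 genes were higher and 2 lower at 2-fold, with a median of 0.50. The lower genes of the list in the marker fibroblasts were Saa2, C3, Lrg1 and Serpina3m. C3 stood at 460 CPM in CLP plus stimulation and 1383 CPM in CLP, at -1.58 (-1.81 to -1.37).

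Fibrillar collagens were lower again. Of 6 measured genes 5 were at least 2-fold lower and none higher, with a median of -1.36, and 3 of 4 without the gate genes Col1a2 and Col3a1. In the other fibroblasts the median of the 6 genes was also -1.36, with 4 at least 2-fold lower and none higher. Col3a1, which the gate used, had 127 CPM (95.1 to 167) in CLP plus stimulation, 1178 CPM (1126 to 1232) in CLP, 2657 CPM (2575 to 2742) in sham and 1773 CPM (1708 to 1839) in control. Its ratio was -3.20 (-3.64 to -2.81) in the members and -1.79 in other fibroblasts, and it was detected in 41.9% of stimulated members against 97.6% of CLP members. Serpinh1, the collagen chaperone, had 88.2, 569, 806 and 467 CPM in the 4 libraries, at -2.67 (-3.21 to -2.21). Of 8 proteoglycans 5 were lower and none higher, with Ogn at -4.41 (-7.78 to -2.86) on 2 counts in the stimulated members and Aspn at -2.91 (-4.22 to -1.99). Timp3, a matrix-bound inhibitor of metalloproteases, had 360, 1594, 2074 and 1986 CPM. Igfbp5 and Igfbp3, insulin-like growth factor binding proteins, had 24.5 and 12.2 CPM in CLP plus stimulation and 161 and 106 CPM in CLP.

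Interferon response genes had a median of -0.59, with none of 19 higher and 5 lower at 2-fold. Bst2, tetherin, had 53.9, 233, 206 and 90.7 CPM in the 4 libraries. Complement genes had a median of -0.56, with 4 of 12 lower and 2 higher, the higher ones being the macrophage markers C1qa and C1qb. The other fibroblasts had similar medians, at -0.59 for the interferon genes and -0.57 for the complement genes. Cfb had 61.2 CPM in CLP plus stimulation and 518 CPM in CLP. Il33, an alarmin cytokine, had no count in the stimulated members and 104 counts in CLP, at least 8.71-fold lower against the floor of 3 counts over the stimulated members. Among the rule genes Chad was lower, at -1.16 (-1.70 to -0.69), Fmod had 0.54 (0.28 to 0.80), and the intervals of Comp, Wif1 and Cilp2 included 0.

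**Figure D5:**
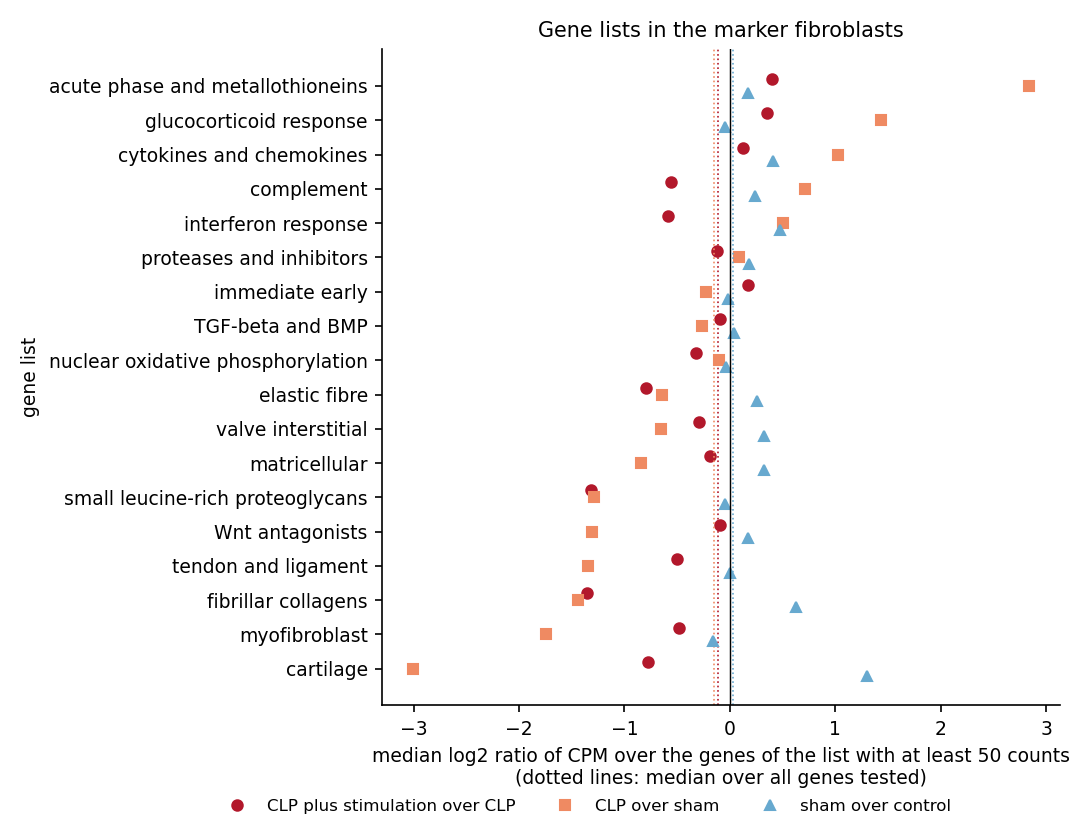
Median log2 ratio of CPM over the genes of 18 lists with at least 50 counts in the comparison, for CLP plus stimulation over CLP (circles), CLP over sham (squares) and sham over control (triangles). Dotted lines are the medians of all genes with such counts, at -0.11, -0.15 and 0.03, and acute phase genes stand furthest right at 2.84 for CLP over sham.

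Sham over control gives the difference between libraries of hearts without sepsis, the sham procedure included. The marker fibroblasts of these libraries differed less than those of the comparisons above. Of 6327 genes with such counts 70 were at least 2-fold higher in sham (1.11%) and 34 at least 2-fold lower (0.537%), with a median of 0.03. Fibrillar collagens were somewhat higher, at a median of 0.63 with all 9 above 0. Col1a1 had 2898 CPM in sham and 1879 CPM in control, at 0.63 (0.56 to 0.69), against 0.34 in other fibroblasts. Isg15, a ubiquitin-like protein induced by interferon, had 47.7 CPM in sham and 12.5 CPM in control, at 1.91 (1.20 to 2.73), and the interferon list had a median of 0.47 with 4 of 18 higher and none lower at 2-fold.

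Cartilage genes had a median of 1.30 with 9 of 16 higher in sham, and 0.33 without each gene's top cell. Col2a1 and Saa3, the genes furthest apart, had 99.9% and 99.3% of their sham counts in 1 cell, and these were different cells. Fn1, fibronectin, at 1.59, had 66.95% of its sham counts in 1 cell and a ratio of -0.00 without it. Tnmd, tenomodulin, a marker of tendon cells, had 5 counts in sham and 71 in control, at -3.58 (-5.37 to -2.41), and 13 control members carried it. Tagln had 180 CPM in sham and 399 CPM in control. Among the rule genes, Comp and Chad lay at -0.01 and 0.02, with intervals that included 0. The other rule genes were higher in sham, by less than 2-fold. Fmod had 1563 CPM (1499 to 1628) in sham and 1382 CPM (1325 to 1441) in control. Wif1 had 928 CPM (880 to 979) and 720 CPM (679 to 763), and Cilp2 had 226 CPM (202 to 252) and 158 CPM (139 to 178). Prg4 and Cilp lay at -0.02 and 0.04.

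The share of a gene's counts in its top cell had a median over genes of 7.35% in CLP plus stimulation over CLP, 5.41% in CLP over sham and 5% in sham over control. Leaving out that cell for each gene took 159 genes of the stimulation comparison, 118 of CLP over sham and 42 of sham over control to the inner side of 2-fold. The sum of 8 mural markers was higher in the members than in the other fibroblasts of each library, at 144, 234, 485 and 750 CPM against 66.7, 92.8, 186 and 263 CPM, with Myh11 at 0 by the rule. Taken singly, 4, 4, 5 and 3 of the 8 mural markers were above the other fibroblasts in CLP plus stimulation, CLP, sham and control. Neutrophil markers stood at 277, 194, 37.5 and 102 CPM in the members, with 85.9% of the control sum in 1 cell and Ly6g at 0 in all 4 libraries, against 696, 364, 50.3 and 59.9 CPM in the other fibroblasts. Endothelial markers stood at 274, 227, 81.1 and 171 CPM in the members, against 1290, 532, 129 and 286 CPM in the other fibroblasts, with Cdh5 at 0 by the rule. Cardiomyocyte markers stood at 53.9, 116, 55.9 and 159 CPM in the members, against 62.8, 137, 175 and 236 CPM, and Myl7 was at 0 in both CLP libraries. The part of these markers in the ratios was not tested. Between the libraries 209 of the deposited barcodes were shared, among them 4 members of CLP and 3 of control.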

How the data were processed

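Hearts of 4 mouse groups went into libraries of the kit Chromium 3' v3, which the labels' protocols name. The deposited files hold the authors' UMI counts per gene and cell barcode, and per the file headers Cell Ranger 5.0.0 made them. STAR and mm10 are named in the submitters' processing notes. The 4 deposited count matrices list 32285 genes and hold 8831, 8741, 9538 and 15964 barcodes with 54611436, 58330756, 58028279 and 59465046 UMIs in CLP plus stimulation, CLP, sham and control.

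Counts of the marker fibroblasts were summed per library and divided by their total UMIs to give CPM. Log2 ratios used a prior of 0.5 counts, with exact conditional binomial intervals for counting error. Levels have exact Poisson and shares exact Clopper-Pearson intervals. A count of 0 was set to a floor of 3 counts over the members of a library where a fold is given as a bound. Genes with at least 50 counts over both libraries entered a comparison, and 2-fold was the size rule. With 1 library per group no test across samples exists. The members and the 28 gene lists and 11 marker lists were chosen with earlier results of these data known.

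Named genes were the 10 highest and 10 lowest ratios of the CLP comparisons and 5 and 5 of sham over control, with at least 100 CPM in the higher library, leaving out other cell types' markers and genes over 10 times as high in leukocytes or endothelial cells. The rule also named the 15 highest and 10 lowest genes against other fibroblasts, the rule genes and the extremes of each list. Other genes in the text were chosen after their values were seen. Col21a1, listed among collagens, had no row, and of the rows for Ccl19 the one whose ID carries that symbol in the reference gene table was taken. Doublets were scored with Scrublet in scanpy 1.11.5 at 0.8% per 1000 barcodes, which marked 0, 1, 6 and 25 members, and these were kept. TMM factors came from edgeR 4.0.16 in R 4.3.3. Python 3.11.15, numpy 2.4.6, pandas 2.3.3 and scipy 1.17.1 were used. The ratio script was tested on simulated data.

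The alternatives were another scaling, other count minimums, other marker numbers, thinned cells, equal weight per cell, marked doublets left out, and subsets of the members. Those without each gene's top cell, without macrophage marker UMIs and without the Col2a1 cell were chosen after seeing the data.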

Additional observations from a re-analysis of the deposited data

Results flagged for a closer look

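Among the genes named by the fixed rule, 8 cases had ratios on opposite sides of 0 in the marker fibroblasts and in the other fibroblasts of the same libraries, with both at least 0.5 from 0 on the log2 scale and both intervals clear of 0. Genes with a smaller ratio on either side are not counted. With 1 library per group these differences were not tested.

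For CLP over sham, 4 genes met these limits. Thbs4 lay at 1.21 in the marker fibroblasts and -0.58 in the other fibroblasts, and at 1.05 without its top cell, which held 10.7% of the counts. Fn1, fibronectin, lay at 1.07 and -0.99, and at 0.69 without its top cell. Stc2, a secreted glycoprotein hormone, lay at 1.29 and -0.52, and at 1.01 without its top cell. Cthrc1, a secreted protein of activated fibroblasts, lay at -2.98 and 0.81, and at -2.62 without its top cell.

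For CLP plus stimulation over CLP, Saa2 lay at -2.13 in the marker fibroblasts and 1.60 in the others, and 56.9% of its CLP counts were in 1 cell, without which it lay at -0.92. Il33 had no count in the stimulated marker fibroblasts, so its value of -5.72 depends on the prior count, while the others lay at 0.84. For sham over control, Cytl1 lay at 2.15 and -0.91, and at 1.29 without its top cell, which held 44.9% of the counts. Timp1 lay at 1.14 and -0.57, with 57.6% of the sham counts in 1 cell and a value of -0.09 without it.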

How the results depend on the processing

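No paired analysis was possible because each group has 1 library and the labels give no replicate numbers. The share of CLP over sham was -0.74 on cells thinned to 1500 UMIs. The share of CLP plus stimulation over CLP was -1.73 with at least 3 markers, -0.57 on thinned cells and -0.59 for members without Pi16 or Dpp4. Genes past 2-fold numbered 592 of 6285 with enough counts for CLP over sham. With at least 1 count they numbered 4803 of 15464, with at least 200 counts 206 of 2196, and without macrophage marker UMIs 199 of 1017. For CLP plus stimulation over CLP they numbered 783 of 4624, and 4582 of 14580 and 183 of 1333 at those minimums. On thinned cells they numbered 473 of 2664, without Pi16 or Dpp4 505 of 2772, and without macrophage marker UMIs 224 of 1117. For sham over control they numbered 104 of 6327, and 3889 of 15600 and 18 of 2274 at those minimums. Of the same 6327 genes, 57 were past 2-fold with 5 CPM added, 164 with equal weight per cell and 65 without each gene's top cell. Without macrophage marker UMIs 177 of 1538 were past 2-fold, and 1 of these was among the 104. As the totals differ, the counts alone show neither a rise nor a fall.

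For CLP over sham the sign of a median turned for complement with at least 1 count (-0.49), and for calcification genes without top cells (0.45), without Pi16 or Dpp4 (0.34) and without macrophage marker UMIs (0.036). Adventitial genes lay at 0.10 without Pi16 or Dpp4. Without macrophage marker UMIs, which left 27 CLP and 7 sham cells, adventitial genes lay at 1.35, myofibroblast genes at 0.12, tendon genes at 1.10, matricellular genes at 0.0063 and Sfrp2 at 1.15. For CLP plus stimulation over CLP, cartilage genes lay at 0.19 with at least 200 counts, 0.71 without Pi16 or Dpp4 and 1.17 without macrophage marker UMIs. On thinned cells tendon genes lay at 0.31, Hp at -2.30 and Npy at -0.28, and adventitial genes lay at 0.41 without Pi16 or Dpp4. For sham over control, Fn1 lay at -0.0020 without its top cell and at -1.94 without macrophage marker UMIs, where Ifi27l2a lay at -1.64 and Txnip at 0.083. The cause was not tested. Acute phase genes kept a median of 2.41 to 3.08 for CLP over sham over all alternatives run, and fibrillar collagens -1.44 to -0.94. Other medians moved more. The proteoglycan median ran from -1.64 to -0.04, and the glucocorticoid median from 0.23 to 1.60.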
